A study of Mus musculus with 8 samples.

Results

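The Schwann cell and myelin genes described here are Mbp, Pmp22, Mag, Prx, Sox10, Mal, Cnp and Ngfr, 8 of the 56953 genes in the count table of brown adipose tissue (BAT), chosen by their names as markers of the glia that accompany the nerves of the fat pad. Each of the 8 symbols matched 1 row of the table. Of them, 3 (Mbp, Pmp22 and Cnp) held enough reads to be among the 9876 genes tested between groups, and 5 (Mag, Prx, Mal, Sox10 and Ngfr) did not, so their raw reads are given library by library. All 8 libraries came from wild-type C57BL/6J mice that were 8 to 10 weeks old at injection, male or female, and housed at 21 °C, and the sex of each mouse is not given by the labels. Control mice (CTR, n = 4) received PBS alone. Mice with cancer-associated cachexia (CAC, n = 4) received 3000000 Lewis lung carcinoma (LLC) cells, a mouse lung cancer line, in 100 µL of PBS under the skin of the right flank, and were monitored for 21 days. Tissue RNA was sequenced with 1 library per mouse, so fewer Schwann cells and less RNA per Schwann cell cannot be told apart in any value below.

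Schwann cells are the glia of peripheral nerves. Myelinating Schwann cells wrap single large axons in a sheath built from a few abundant proteins, whereas non-myelinating (Remak) Schwann cells hold bundles of thin axons without a sheath. The sympathetic fibres that drive heat production in brown fat are largely of the thin, unmyelinated kind. Among the genes described, Mbp, Pmp22, Mag, Prx and Mal encode proteins of the sheath, Cnp encodes an enzyme of the cytoplasm of myelinating glia, Sox10 encodes the transcription factor that specifies and maintains the Schwann lineage, and Ngfr encodes the p75 neurotrophin receptor of immature, Remak and injured Schwann cells. Several are also used outside nerves. Pmp22 is expressed by fibroblasts and other cells, Mal by epithelia and T cells, Prx by endothelium, and the Mbp locus also encodes the golli proteins of immune cells, so their reads need not come from glia.

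The level of each gene is given as raw reads and as CPM, that is counts per 1000000 of the scaled library. The libraries held 2454493 to 4827956 counts in CTR and 1823167 to 3392538 in CAC, and mitochondrially encoded genes held 28.5% to 33.8% of them. At this depth 3 reads, the limit that a count of 0 allows, correspond to 0.661 to 1.24 CPM in CTR and 0.879 to 1.62 CPM in CAC, and such limits cover counting error only. The defining genes of the labelled tissue were abundant in every library. The summed level of the 7 genes of the brown adipocyte list (Ucp1, Cidea and others) was 15949 to 17722 CPM in CTR and 15428 to 17705 CPM in CAC, against 94.1 to 123 CPM for the 8 Schwann cell and myelin genes together.

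Coordinates are those of GRCm38 in GENCODE M21. Pmp22 (ENSMUSG00000018217.13) lies on the plus strand of chromosome 11 from 63128982 to 63159547, Cnp (ENSMUSG00000006782.17) on the plus strand of chromosome 11 from 100574904 to 100591729, and Ngfr (ENSMUSG00000000120.7) on the minus strand of chromosome 11 from 95568818 to 95587735. Mag (ENSMUSG00000036634.16) lies on the minus strand of chromosome 7 from 30899176 to 30914873 and Prx (ENSMUSG00000053198.15) on the plus strand of the same chromosome from 27499324 to 27520214. Sox10 (ENSMUSG00000033006.11) is on the minus strand of chromosome 15 from 79154908 to 79165240 and Mal (ENSMUSG00000027375.15) on the minus strand of chromosome 2 from 127633226 to 127656695. An annotated gene on the opposite strand overlaps 3 of the 8 genes, which are Cnp with Dnajc7, Prx with the antisense gene Gm15541 and Mbp with the pseudogene Rpl21-ps8. The sources do not say whether the counting used strand, so reads of these pairs cannot be told apart here.

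SOX10 is known to act on myelin genes through SOX motifs, so the 250 bases before each start site were searched on both strands for the SOX motif ACAAAG and for its variant ACAATG. RefSeq (GRCm38.p6) gave 11 such windows for 6 of the genes, and Mbp and Sox10 had none in the table used. ACAAAG or its reverse complement was found in 3 of the 11 windows (27.3%), which belong to Mag, whose 2 overlapping windows share the match, and Cnp, against 16.5% of all 32851 RefSeq windows, and ACAATG was found in 0 of the 11 windows against 10.7% of all windows. The Mag and Cnp windows are shown because they hold the match, and a pair of Pmp22 windows because Pmp22 has alternative start sites, of which the upstream one is known for myelinating Schwann cells, while reads counted per gene do not separate them. All are written 5′ to 3′ on the strand of the gene with the match in capitals. The Mag window is chr7:30914923-30915172 on the minus strand, and its match, on the opposite strand of the gene, starts 67 bases before the start site. The Cnp sequence is chr11:100574689-100574903, with the match 167 bases before the RefSeq start and without the last 35 bases of its window, which lie in the annotated gene. The Pmp22 windows shown are chr11:63128732-63128981, with a GC content of 48.8%, and chr11:63132319-63132568, with a GC content of 64.8%, beside a median of 52.4% over all windows. The other downstream Pmp22 windows, not shown, have a GC content of 61.2% and 73.6%.
Mag: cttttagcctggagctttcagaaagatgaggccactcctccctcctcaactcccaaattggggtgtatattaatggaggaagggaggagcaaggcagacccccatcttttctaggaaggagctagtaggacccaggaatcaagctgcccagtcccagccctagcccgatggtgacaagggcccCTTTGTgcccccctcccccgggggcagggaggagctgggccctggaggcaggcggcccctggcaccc
Cnp: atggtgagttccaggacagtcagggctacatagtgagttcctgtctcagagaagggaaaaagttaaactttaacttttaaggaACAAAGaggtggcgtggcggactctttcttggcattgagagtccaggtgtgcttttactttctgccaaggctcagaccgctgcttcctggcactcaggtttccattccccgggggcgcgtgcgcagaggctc
Pmp22, first start: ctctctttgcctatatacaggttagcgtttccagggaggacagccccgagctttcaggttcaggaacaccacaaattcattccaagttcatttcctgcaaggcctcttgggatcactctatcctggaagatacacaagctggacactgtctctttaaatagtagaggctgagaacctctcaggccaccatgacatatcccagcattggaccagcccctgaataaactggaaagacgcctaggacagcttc
Pmp22, downstream start: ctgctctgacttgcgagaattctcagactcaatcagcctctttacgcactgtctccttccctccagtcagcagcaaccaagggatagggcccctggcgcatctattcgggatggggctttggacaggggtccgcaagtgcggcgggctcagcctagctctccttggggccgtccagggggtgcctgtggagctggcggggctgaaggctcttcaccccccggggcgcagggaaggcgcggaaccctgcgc
A match is a description of the letters and not a measured binding site.

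The first question was how these genes are ordered in brown fat. Pmp22 held 48.7% of all reads on the 8 genes, Mbp 37.5% and Cnp 8.80%, while Sox10 held 2.15%, Ngfr 1.33%, Mal 0.626%, Prx 0.548% and Mag 0.313%. Genes can be compared per kilobase of merged exons, as far as reads cover whole transcripts, which the sources do not state. On that scale the mean level of Pmp22 was 23.3 CPM per kb in CTR and 21.1 in CAC. Mbp followed with 4.55 and 5.27 CPM per kb, and Cnp with 2.83 and 2.34. Sox10 stood at 0.516 and 1.05 CPM per kb and Ngfr at 0.474 and 0.450. Mal, at 0.152 and 0.327, Prx, at 0.0689 and 0.137, and Mag, at 0.0944 and 0.0540 CPM per kb, rested on 16, 14 and 8 reads in all 8 libraries. In CPM, Pmp22 and Mbp overlapped each other between libraries, every library of both lay above every library of Cnp, and every library of Cnp lay above every library of the 5 other genes. In CTR, Sox10, Ngfr, Mal, Prx and Mag overlapped each other. In CAC, Sox10 overlapped Ngfr and lay above every library of Mal, Prx and Mag, and those 3 overlapped each other and Ngfr.

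**Figure D1:**
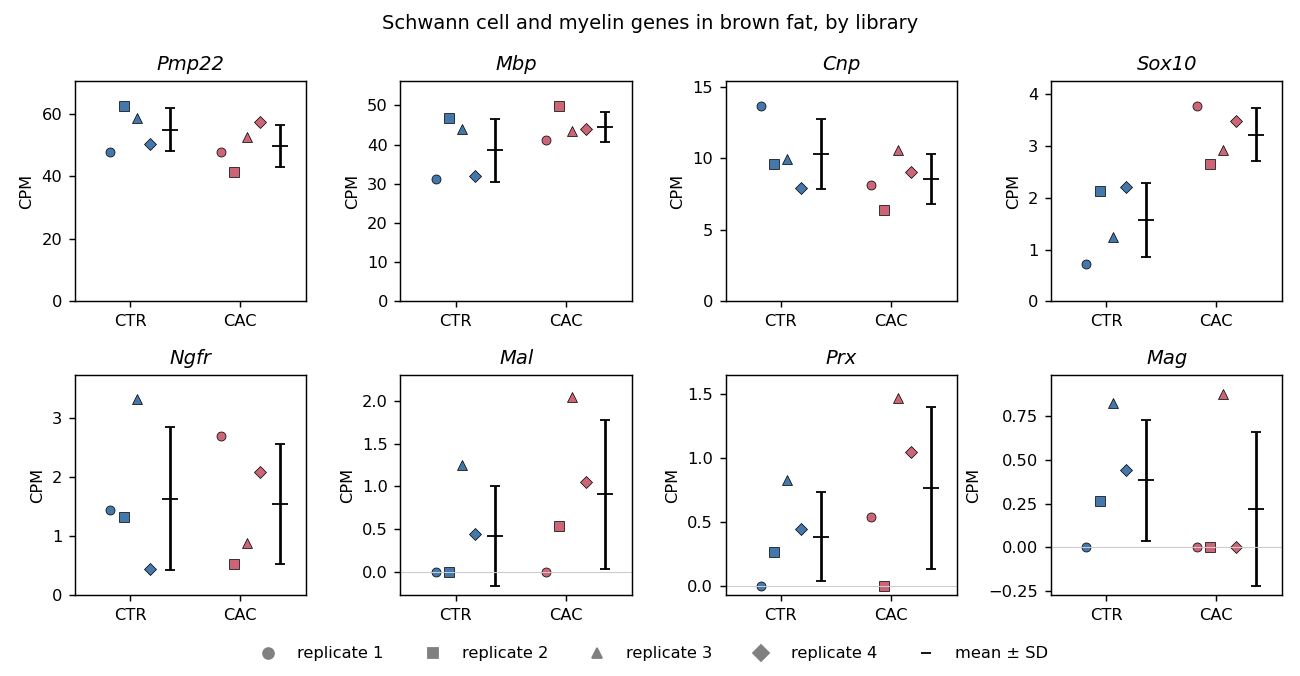
Level of each gene in CPM (vertical axis, each panel with its own scale starting at 0 or, where the mean minus the SD is negative, below it) in the 4 CTR and 4 CAC libraries, with 1 symbol per library and the mean ± SD beside them. Pmp22, Mbp and Cnp overlap between the groups, Sox10 lies at 0.720 to 2.20 CPM in CTR and 2.66 to 3.78 CPM in CAC, and Mal, Prx and Mag have libraries at 0.

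The comparison of CAC with CTR asked whether the nerve-associated glia of brown fat differ in mice with a tumour. None of the 3 testable genes, Mbp, Pmp22 and Cnp, passed an adjusted p of 0.05 (quasi-likelihood test of edgeR, adjusted over all tested genes by the Benjamini-Hochberg method), where 0.932% of the 9876 tested genes did. At an unadjusted p below 0.05 the count was also 0 of 3, against 12.9% of tested genes, and DESeq2 and limma-trend likewise called 0 of 3. Without CTR 2, 1 of the 3 (Mbp, log2 fold change 0.33) had an unadjusted p below 0.05, and 0 passed after adjustment. Mbp was higher and Pmp22 and Cnp were lower in CAC, and the median of their log2 fold changes was -0.13 beside -4.7e-05 over all genes tested. The summed level of all 8 genes was 95.0, 123.0, 119.9 and 94.1 CPM in CTR 1 to 4 and 103.8, 101.6, 114.6 and 117.8 CPM in CAC 1 to 4. The means were 108 ± 15.6 (SD, n = 4) and 109 ± 7.97 CPM, a log2 ratio of 0.02, which is smaller than the spread between libraries of 0.16 on that scale. Without Pmp22, the most abundant of the genes, the log2 ratio was 0.17.

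Among the sheath proteins, Pmp22, a small membrane protein of compact myelin whose dosage matters in inherited neuropathy, was the most abundant. Its reads numbered 133, 235, 141 and 228 in CTR 1 to 4 and 88, 78, 179 and 164 in CAC 1 to 4, or 47.9, 62.6, 58.5 and 50.3 CPM and 47.6, 41.5, 52.5 and 57.2 CPM. CAC 2 was the lowest library and CTR 2 the highest, and the groups overlapped. The mean was 54.8 ± 6.91 CPM in CTR and 49.7 ± 6.72 CPM in CAC, which on the log2 scale is a change of -0.13 (95% interval -0.40 to 0.14, edgeR adjusted p = 0.732).

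Mbp, the myelin basic protein that holds the cytoplasmic faces of the sheath together, had 87, 176, 106 and 145 reads in CTR 1 to 4 and 76, 94, 148 and 126 reads in CAC 1 to 4. The gene (ENSMUSG00000041607.18) lies on the plus strand of chromosome 18 from 82475146 to 82585637. Its level was 31.3, 46.9, 44.0 and 32.0 CPM in CTR and 41.1, 50.0, 43.4 and 43.9 CPM in CAC. CTR 1 and CTR 4 lay below all CAC libraries, whereas CTR 2 and CTR 3 lay among them. The mean was 38.5 ± 8.05 CPM in CTR and 44.6 ± 3.80 CPM in CAC, which on the log2 scale is a change of 0.21 (95% interval -0.09 to 0.51, edgeR adjusted p = 0.570).

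Cnp, the cyclic nucleotide phosphodiesterase of myelinating glia, had 38.5, 36, 24 and 36.5 reads in CTR and 15, 12, 36.5 and 26.5 reads in CAC. The source of the fractions in 4 libraries was not tested. The level of Cnp was 13.7, 9.59, 9.96 and 7.94 CPM in CTR and 8.11, 6.38, 10.5 and 9.06 CPM in CAC. CTR 1 stood highest and CAC 2 lowest, and the other 6 libraries were mixed. The mean was 10.3 ± 2.42 CPM in CTR and 8.53 ± 1.75 CPM in CAC, which on the log2 scale is a change of -0.21 (95% interval -0.70 to 0.28, edgeR adjusted p = 0.770). Leaving out CTR 1 brought the log2 fold change of Cnp to -0.05, and leaving out CAC 3 brought it to -0.34.

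The other sheath genes were at the limit of detection. Mag, the myelin-associated glycoprotein that faces the axon, had 0, 1, 2 and 2 reads in CTR 1 to 4 and 0, 0, 3 and 0 in CAC 1 to 4. Prx, the periaxin that anchors the myelinating Schwann cell to its basal lamina, had 0, 1, 2 and 2 reads in CTR and 1, 0, 5 and 3 in CAC. Mal, a lipid-raft protein of myelin and of epithelia, had 0, 0, 3 and 2 reads in CTR and 0, 1, 7 and 3 in CAC. The differences in mean log2(CPM + 1), CAC minus CTR, were -0.21 for Mag, 0.30 for Prx and 0.39 for Mal, with exact two-sided permutation p of 0.657, 0.4 and 0.486 over the 70 assignments of 4 against 4 libraries, whose smallest p is 0.0286. The added 1 shrinks such differences. With low counts kept, the log2 fold changes of Mag, Prx and Mal were -0.35, 1.11 and 1.36 in edgeR (adjusted p = 0.951, 0.682 and 0.648) and -0.56, 1.12 and 1.28 in DESeq2, which gave no adjusted p. No difference in these 3 genes was detected at this depth.

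Those few reads were unevenly spread over the libraries of both groups. Mag, Prx and Mal together had 0, 2, 7 and 6 reads in CTR 1 to 4 and 1, 1, 15 and 6 reads in CAC 1 to 4, so CTR 3 and CAC 3 held the most of their groups. The summed level of the 8 genes of the skeletal muscle list was highest in the same pair of libraries, with 1118, 1915, 2346 and 937 CPM in CTR 1 to 4 and 2047, 3071, 3914 and 3401 CPM in CAC 1 to 4. All 8 muscle genes were higher in CAC, 5 of them with an unadjusted p below 0.05 and 0 after adjustment in edgeR, and the median of their log2 fold changes was 1.01. The part of muscle RNA, or of the nerves that run in muscle, in the reads of Mag, Prx and Mal was not tested.

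**Figure D2:**
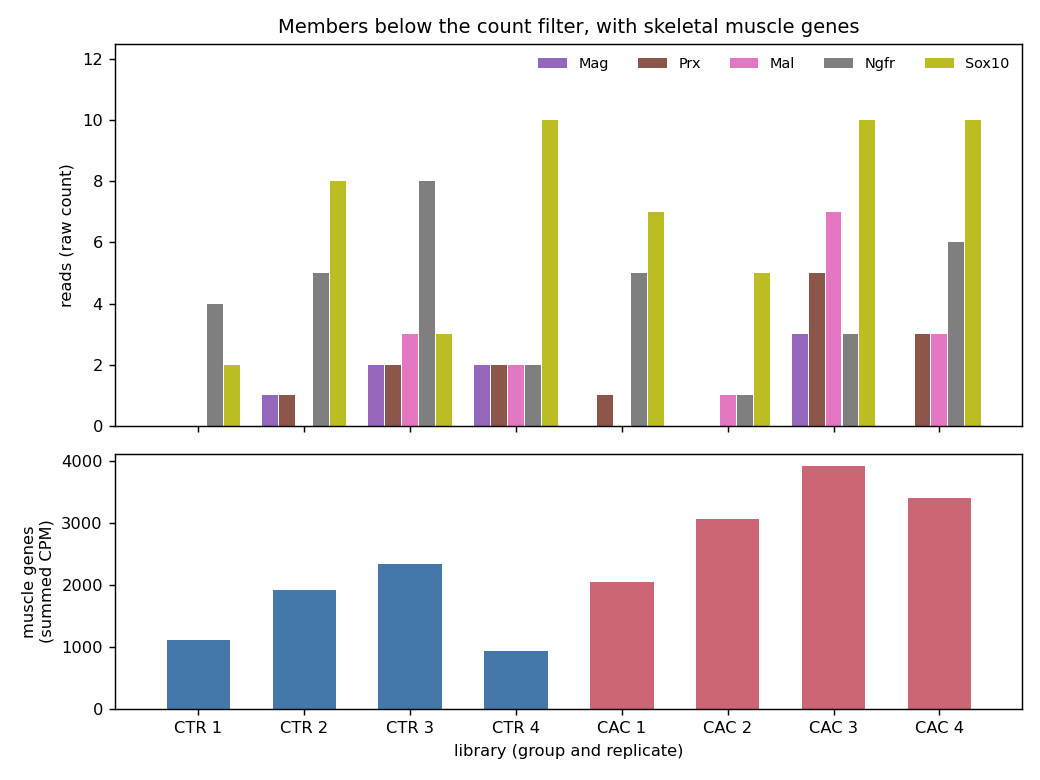
Raw reads of Mag, Prx, Mal, Ngfr and Sox10 (top) and summed CPM of 8 skeletal muscle genes (bottom) in each library, with CTR in blue and CAC in red in the lower panel. CTR 3 and CAC 3 have the highest muscle sums, at 2346 and 3914 CPM, of their groups, and Sox10 has between 2 and 10 reads in every library.

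Sox10, the lineage factor, was the only one of the 8 genes whose groups did not overlap in CPM. It had 2, 8, 3 and 10 reads in CTR 1 to 4 and 7, 5, 10 and 10 reads in CAC 1 to 4, so its raw reads did overlap, and the separation came with the scaling to library size. Scaled, its level was 0.720, 2.13, 1.24 and 2.20 CPM in CTR and 3.78, 2.66, 2.93 and 3.49 CPM in CAC. The nearest libraries of the groups, CTR 4 and CAC 2, stood at 2.20 and 2.66 CPM, and 1 read is worth 0.220 and 0.532 CPM in them. The mean was 1.58 ± 0.718 CPM in CTR and 3.21 ± 0.512 CPM in CAC. The difference in mean log2(CPM + 1) was 0.75, with an exact two-sided permutation p of 0.0286, which is the smallest that 70 assignments can give and is not adjusted for the 5 genes tested in this way.

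That separation was set against all genes of like depth. Of the 3140 genes below the count filter with a total count within 2 times that of Sox10, 1.88% had all CAC libraries above all CTR libraries and 1.88% had the reverse. When genes with low counts were kept, edgeR gave Sox10 a log2 fold change of 0.89 with an adjusted p of 0.532, and DESeq2 gave 0.97 and no adjusted p, and both left its unadjusted p above 0.05. Leaving out any 1 of the 4 CAC libraries raised the exact p to 0.0571 to 0.0857, with differences of 0.69 to 0.81, while the 4 fits without a CTR library and those with another pseudocount or scaling kept p = 0.0286 in the same exact test, with differences of 0.57 to 0.90. Sox10 therefore did not pass a test over all genes. Erbb3, the neuregulin receptor of Schwann cells, had between 0 and 4.5 reads in each library.

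Ngfr, the low-affinity nerve growth factor receptor, had 4, 5, 8 and 2 reads in CTR 1 to 4 and 5, 1, 3 and 6 reads in CAC 1 to 4. Its level was 1.44, 1.33, 3.32 and 0.441 CPM in CTR and 2.70, 0.532, 0.879 and 2.09 CPM in CAC. The CAC range lay within the CTR range, with CTR 3 highest and CTR 4 lowest. The difference in mean log2(CPM + 1) was -0.03 with an exact two-sided permutation p of 0.971, and its sign turned when CTR 3, CAC 2 or CAC 3 was left out, to 0.25, 0.19 and 0.09.

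The same comparison was made for other genes of nerve. Of 16 further genes of peripheral myelin and the myelinating Schwann cell, 2 could be tested and 0 passed after adjustment, while 9 had at most 10 reads in all libraries together. Gldn, the gliomedin that gathers sodium channels at the node, had 6.15 ± 1.97 CPM in CTR and 3.85 ± 2.27 CPM in CAC (log2 fold change -0.63, edgeR adjusted p = 0.499). The tight-junction gene Cldn19 had 1.44, 1.60, 8.30 and 0.882 CPM in CTR 1 to 4 and 3.24, 2.13, 2.05 and 7.67 CPM in CAC 1 to 4, with CTR 3 and CAC 4 apart from the rest. Ncmap, a non-compact myelin protein, stood at 0.535 ± 0.446 and 0.646 ± 0.565 CPM.

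Of 17 genes of the Schwann lineage and the non-myelinating Schwann cell, 4 were tested, 1 higher and 3 lower, and 0 passed after adjustment. S100b, a calcium-binding protein of glia that adipocytes also make, was by far the most abundant, with 193, 226, 272 and 249 CPM in CTR 1 to 4 and 338, 185, 178 and 168 CPM in CAC 1 to 4. CAC 1 was the highest of all libraries and the 3 other CAC libraries were the lowest, and the groups differed by -0.12 on the log2 scale (edgeR adjusted p = 0.893). S100b made up 76.3% to 92.7% of the summed list in each library. Without it, the remaining 16 genes summed to 45.7, 49.8, 42.3 and 46.1 CPM in CTR and 26.5, 37.2, 55.4 and 49.2 CPM in CAC, and CAC 1 was then the lowest library. A sum of the list therefore mainly described S100b, which also overlaps Dip2a on the opposite strand.

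**Figure D3:**
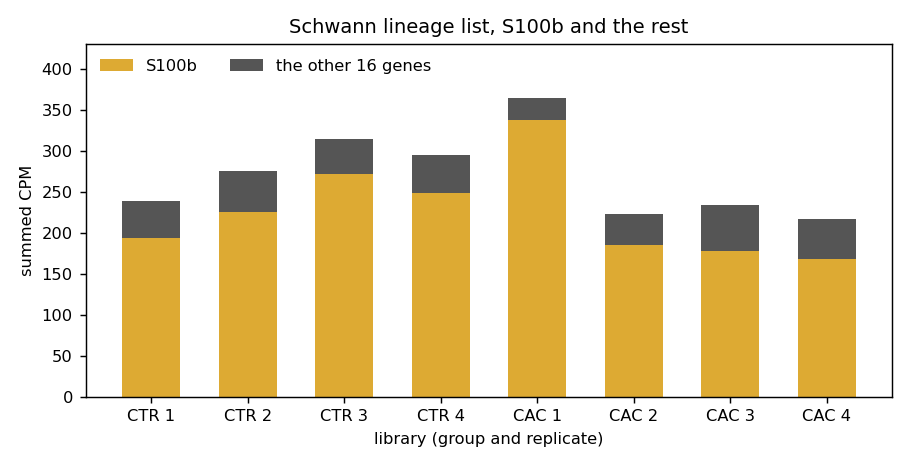
Summed CPM of the 17 genes of the Schwann lineage list in each library, divided into S100b (yellow) and the other 16 genes (grey). CAC 1 has the highest S100b, at 338 CPM, and the lowest sum of the remaining genes, at 26.5 CPM.

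Other genes of the lineage list were less abundant. Scn7a, a sodium channel of Remak Schwann cells, had 17.3, 17.6, 12.9 and 16.3 CPM in CTR 1 to 4 and 8.11, 6.91, 23.4 and 21.3 CPM in CAC 1 to 4. CAC 1 and CAC 2 lay below all CTR libraries and CAC 3 and CAC 4 above them, and the groups differed by -0.01 on the log2 scale (edgeR adjusted p = 0.995). Art3, an ADP-ribosyltransferase gene, had 14.0 ± 2.51 CPM in CTR and 9.15 ± 3.52 CPM in CAC (log2 fold change -0.53, edgeR adjusted p = 0.346). It was lower with an unadjusted p below 0.05, as were 5.93% of tested genes, and its locus overlaps Cxcl10 and Cxcl11. Chl1, a cell adhesion molecule, had 2.79 ± 1.71 CPM in CTR and 4.53 ± 1.09 CPM in CAC (log2 fold change 0.67, edgeR adjusted p = 0.499). Lgi4, a secreted signal for myelination, was below the filter at 2.28 ± 0.868 and 3.14 ± 1.26 CPM.

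**Figure D4:**
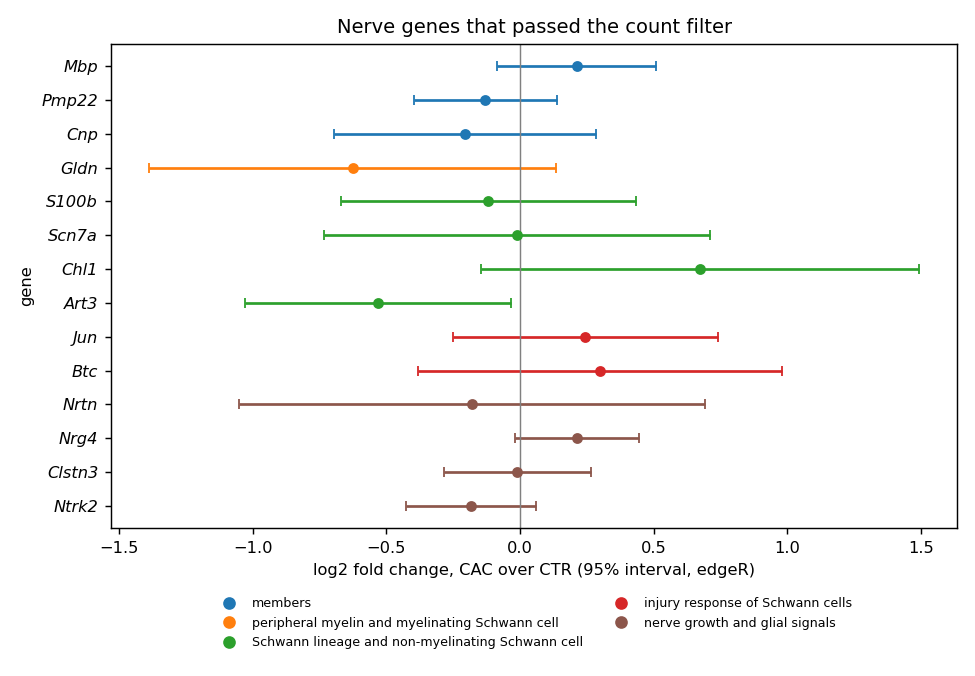
Log2 fold change of CAC over CTR with its 95% interval from edgeR (horizontal axis), coloured by list, where members are the genes described in full. It is drawn for 14 of the nerve genes that passed the count filter, and not for all of them. All intervals shown include 0 except that of Art3, whose adjusted p was 0.346.

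Schwann cells that lose their axon switch to a repair state. Of 11 genes of that state, 2 were tested and 3 had no read in any library. Jun, the transcription factor of the repair programme and of many other cell responses, had 22.3 ± 7.64 CPM in CTR and 26.2 ± 6.22 CPM in CAC (log2 fold change 0.24, edgeR adjusted p = 0.719). Btc, the growth factor betacellulin, had 3.82 ± 1.33 and 4.76 ± 1.40 CPM (log2 fold change 0.30, edgeR adjusted p = 0.763). Bdnf, Runx2 and Tnc had means of 0.135 to 0.561 CPM in both groups, below the level of 3 reads.

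The neurons whose axons these glia accompany have their cell bodies, which hold most of their RNA, outside the fat pad. Of 18 genes of sympathetic and sensory neurons none passed the filter, 14 had at most 10 reads in all libraries together and 5 had none. Th, the rate-limiting enzyme of catecholamine synthesis, had 0, 1, 0 and 0 reads in CTR 1 to 4 and 1, 2, 1 and 0 in CAC 1 to 4, and Dbh had none. Stmn2, a microtubule regulator of growing axons, had 9, 15, 11 and 15 reads in CTR and 7, 4, 11 and 10 reads in CAC, or 3.78 ± 0.627 and 3.16 ± 0.723 CPM. The summed list was 6.17 to 7.72 CPM in CTR and 5.93 to 7.44 CPM in CAC, with overlapping groups.

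Among 13 genes of signals between fat, nerve and glia, 4 were tested and 0 passed. Nrg4, a neuregulin released by brown adipocytes, had 101 ± 1.97 CPM in CTR and 117 ± 16.5 CPM in CAC (log2 fold change 0.21, edgeR adjusted p = 0.433), and all CAC libraries, at 105 to 141 CPM, lay above the CTR libraries, at 99.1 to 103 CPM, as was so for 3.64% of tested genes. Ntrk2, the receptor of BDNF, had 64.4 ± 7.92 and 57.0 ± 3.45 CPM (log2 fold change -0.18, edgeR adjusted p = 0.549). Clstn3, whose adipocyte form is known to support sympathetic innervation, had 58.4 ± 8.39 and 57.7 ± 8.48 CPM (log2 fold change -0.01, edgeR adjusted p = 0.986), and the neurotrophic factor Nrtn had 6.46 ± 3.46 and 6.17 ± 3.20 CPM (log2 fold change -0.18, edgeR adjusted p = 0.907). Ret, a receptor for factors of the Nrtn family, was below the filter at 1.12 ± 0.592 and 2.47 ± 0.983 CPM.

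None of the 8 genes of the perineurium and endoneurium, the sheaths around nerve bundles, passed the filter. The list summed to 6.64 to 9.06 CPM in CTR and 7.32 to 13.5 CPM in CAC. Its integrin gene Itgb4 had 1.08, 1.60, 1.66 and 2.65 CPM in CTR 1 to 4 and 6.49, 5.85, 3.52 and 1.74 CPM in CAC 1 to 4, so CAC 4 lay within the CTR range. Osr2 had means of 2.37 and 2.53 CPM, Sox9 2.18 and 1.57 CPM, the glucose transporter gene Slc2a1 0.950 and 1.70 CPM, and Lypd2 0.290 and 0.381 CPM.

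Markers of other cell types that use some of these genes were read in the same way. The 6 oligodendrocyte genes, which mark the myelinating cells of the brain, had 2 reads in all 8 libraries together, 1 of Ermn and 1 of Mobp, while Mog, Olig2, Opalin and Klk6 had none. Of 6 epithelial genes 4 had no read in any library, and the list summed to at most 0.830 CPM. The T cell list summed to 2.07 to 4.53 CPM in CTR and 3.14 to 7.44 CPM in CAC. The fibroblast list summed to 475 to 622 CPM and 414 to 605 CPM, the endothelial list to 240 to 316 and 196 to 280 CPM, and the list of smooth muscle and pericytes to 158 to 170 and 134 to 174 CPM, with 0 genes of the 3 lists passing after adjustment. The macrophage list was higher in CAC, at 154 to 209 CPM against 101 to 133 CPM, with all 5 tested genes higher and 1 passing (C1qa), and so was the neutrophil list, at 170 to 437 CPM against 11.5 to 15.2 CPM, with 4 of 4 tested genes higher and 3 passing. The part of these cells in the reads of Mbp, Mal and Prx was not tested.

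The testable genes did not move together from library to library. Over the 8 libraries, which share the same scaling and include both groups, Pearson's correlation of log2 CPM was 0.16 between Mbp and Pmp22, 0.39 between Pmp22 and Cnp and -0.47 between Mbp and Cnp, given as a description. Scn7a correlated with Pmp22 at 0.63, with Cnp at 0.65 and with Mbp at -0.29. Of 8622 tested genes with a mean of at least 5 CPM, those most like the mean of Mbp, Pmp22 and Cnp over the 8 libraries were Ext2 (0.97), Ciao2a (0.96), Srsf7 (0.93), Tnni1 (0.92) and Ppp1r8 (0.92). None of these 5 is on a nerve list, and Tnni1 encodes a troponin of slow muscle fibres. The 5 values are the highest of 8622 correlations over 8 libraries, and how high chance alone would reach was not tested.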

How the data were processed

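RNA from the BAT of 4 CTR and 4 CAC mice was sequenced on single-end libraries. Per the labels, the authors checked reads with FastQC 0.11.9, aligned them to mm10 with HISAT2 2.2.1 and counted them per gene with featureCounts. The deposited expected counts are not normalized and hold fractions. The authors report counting with the multi-mapping option, and the source of the fractions was not tested. A further deposited signal was made by the authors with DESeq2, and 100% of its values for the 24644 genes of 24792 matched by symbol equal the count without decimals divided by a size factor (tolerance 0.01 counts). Counts were rounded and fitted in edgeR 4.0.16 (R 4.3.3) after filterByExpr, with TMM scaling, and CAC was compared with CTR by the quasi-likelihood test with robust estimation and no covariates, adjusted by Benjamini-Hochberg over 9876 genes (threshold 0.05). In simulated data for this comparison (9896 genes), 82 of 99 genes changed by a log2 of 1, 99 of 99 changed by 2 and 11 of 9698 unchanged genes were called. Genes below the filter were compared by exact permutation of log2(CPM + 1). Libraries are single mice, and p-values measure the spread between them.

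The genes described, the 17 lists and the motifs were chosen with earlier results of these data known. All 8 genes are named. So are the 5 most abundant genes of each nerve list, list genes with an unadjusted p below 0.05 there, and the 5 genes most like Mbp, Pmp22 and Cnp. Some genes of the lists are not reported here. Other list genes are named for their role or zero counts, after their values were seen. By ID without version, 91.4% of genes matched GENCODE M21. Alternatives were DESeq2 1.42.0, limma-trend (limma 3.58.1) on the signal plus 1, other scalings and filters, the replicate number as a block and each library left out. Tables and plots used Python 3.11.15, pandas 2.3.3 and matplotlib 3.10.9.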

Additional observations from a re-analysis of the deposited data

Results flagged for a closer look

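In 110 groups of 4 libraries, formed from the 8 genes, the list sums and the named genes of the nerve lists, 11 had a library standing apart from the other 3. For independent values with a bell-shaped spread, chance would give about 1 in 20, or 5.5. Several of the 11 are a few reads beside libraries at 0, and S100b is counted alone and in its list. The 11 therefore cannot be judged against that rate. Mag had 0.879 CPM (3 reads) in CAC 3 and 0 in the 3 other CAC libraries. The Schwann lineage list summed to 364.3 CPM in CAC 1 and to 216.8 to 233.5 CPM in the other CAC libraries, and its S100b alone was at 337.9 CPM there against 167.7 to 185.1 CPM. Cldn19 was at 8.30 CPM in CTR 3 and at 0.882 to 1.60 CPM in the other CTR libraries. The oligodendrocyte list had its 2 reads in CTR 2 (0.266 CPM) and CAC 4 (0.349 CPM), and 0 elsewhere. Th had 1 read in CTR 2 (0.266 CPM) and none in the other CTR libraries, Bdnf stood at 0.541 CPM in CAC 1 and Runx2 at 1.05 CPM in CAC 4, with the other CAC libraries at 0. The endothelial list was at 196.3 CPM in CAC 4 against 269.2 to 279.7 CPM in the other CAC libraries, and the brown adipocyte list at 17720 CPM in CTR 4 against 15950 to 16090 CPM in the other CTR libraries.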

How the results depend on the processing

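Of Mbp, Pmp22 and Cnp, 0 passed the adjusted threshold in all 16 alternatives, and their signs held, with log2 fold changes of 0.13 to 0.33, -0.20 to -0.06 and -0.34 to -0.05. The count of genes called over the whole table moved from 92 to 351 when low counts were kept and ranged from 42 to 135 over the fits that left out 1 library, with 42 without CTR 1 and 60 without CAC 3. The count of low genes with an exact p below 0.05, which is 1 (Sox10), ranged from 0 to 1 when 1 library was left out, with 0 in the fits without a CAC library. The fits without a CTR library, which leave as many assignments, kept p = 0.0286 for Sox10 in the exact test. Without a CAC library the Sox10 difference stayed at 0.69 to 0.81 beside 0.75 with all libraries. The groups still did not overlap. The difference of Ngfr ranged from -0.28 to 0.25 when 1 library was left out and turned positive without CTR 3, CAC 2 or CAC 3. The summed level had a log2 ratio of -0.04 to 0.17 in 13 alternatives, beside 0.02 in the main setting. The 0.17 came from the sum without Pmp22, the most abundant gene. It is about as large as the spread between libraries of the full sum, 0.16 on that scale. The next highest ratio was 0.09, without CTR 2. The causes were not tested.

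With the replicate number as a block, 140 genes were called and still 0 of Mbp, Pmp22 and Cnp. Deviations from the group means correlated at 0.03, -0.02, 0.03 and 0.04 between libraries that share a number. Of the 4 CTR libraries, 2 correlated best with their own number. The labels give only the number, and a shared batch or cage was not tested. Depth limits Mag, Prx and Mal, whose reads number 0 to 7 per library.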
